A study of Drosera capensis with 12 samples.

Results

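The 200 transcript features with the smallest spread over all 12 libraries were described in traps of Drosera capensis, the Cape sundew, whose leaves catch insects on sticky tentacles and bend over them. Each library's values were turned into TPM (transcripts per 1e+06), and y, the centred log2 level, was taken as log2(TPM + 1) minus the library's median over the 30755 features above 0 in every library. Of 397048 features in the table, 4649 reached 20 TPM in all 12 libraries. The 308 with a mean of 300 TPM or more in the 6 mock libraries were set aside, which left 4341 candidates. The 200 of these with the smallest standard deviation (SD) of y were kept. The spread of all 12 libraries thus chose the transcripts, so their small SD and their small differences between groups are a description and not a finding. The other 4141 candidates are called the remaining candidates.

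The RNA came from 4 groups of 3 libraries. Traps closed after 100 mM glutathione (GSH), a thiol tripeptide, on the petiole are called GSH-closed, and the untreated traps of that experiment GSH mock. Traps closed on leaves fed with living fruit flies are called fly-closed, and the unstimulated traps of that experiment fly mock. No genotype, plant age or time after the stimulus is given in the sources used here, and nothing states that the libraries within a group came from different plants. P-values therefore measure only the spread among these libraries, and that spread may be technical. For the fly-closed libraries 1 label field names GSH as the agent, and the titles, which name flies, were followed.

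Transcripts that hold a steady share of a cell's messenger RNA are used as internal references when the levels of other transcripts are measured. In plants such references typically encode parts of basic cell machinery, such as the cytoskeleton, protein turnover, translation and membrane traffic. In sundews, prey contact is known to set off electrical signalling, jasmonate responses and the secretion of digestive enzymes by the glands of the leaf, which makes references that do not follow trap closure useful. The files do not pair the feature IDs with gene names, so the proteins behind the 200 transcripts cannot be stated, the leaf tissue could not be checked against marker genes, and no list of known plant reference genes could be applied.

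The libraries of the experiments differed in composition. Features seen in 1 library alone held 2.34% to 5.02% of TPM in the GSH experiment and 8.08% to 16.8% in the fly experiment. Features at 0 in all 9 libraries without flies held 17.6%, 10.8% and 8.71% of TPM in the fly-closed libraries, and none of the 200 transcripts is among them. The library median of log2(TPM + 1) was 2.63, 2.67 and 2.69 in GSH-closed traps and 3.03, 2.85 and 3.08 in GSH mock traps. GSH mock replicate 2 stood apart from the other GSH mocks, and results are given without it where it matters.

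The steadiest transcript of all was TRINITY_DN3802_c0_g1. It was at 21.3, 22.3 and 23.5 TPM in GSH-closed traps, against 29.2, 25.7 and 29.9 TPM in GSH mock traps. In fly-closed traps it was at 24.5, 26.2 and 26.2 TPM, against 27.0, 25.9 and 25.5 TPM in fly mock traps. Its TPM was thus lowest in GSH-closed traps, without overlap with the GSH mocks. After centring by the library medians, which move the same way, its SD over the 12 libraries was 0.033 on the log2 scale and its highest library lay 1.07-fold above its lowest.

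TRINITY_DN2732_c0_g1, the second in order, was more abundant and was also lowest in GSH-closed traps. It was at 44.6, 47.7 and 43.7 TPM in GSH-closed traps, against 59.2, 52.8 and 59.9 TPM in GSH mock traps. Fly-closed traps had 50.5, 54.8 and 54.9 TPM and fly mock traps 54.8, 52.9 and 52.5 TPM. Its SD was 0.041 and its fold range 1.11. The ratio of its TPM to that of the steadiest transcript, which needs no scaling between libraries, was 2.10, 2.14 and 1.86 in GSH-closed traps, 2.03, 2.06 and 2.01 in GSH mock traps, 2.06, 2.09 and 2.10 in fly-closed traps and 2.03, 2.04 and 2.06 in fly mock traps. The lowest and the highest ratio were both in GSH-closed traps, in replicates 3 and 2, and the other 10 libraries lay between 2.01 and 2.10.

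The next 2 transcripts had low levels as well. TRINITY_DN16762_c0_g1 averaged 32.1 ± 0.38 TPM in GSH-closed traps, 39.8 ± 4.21 TPM in GSH mock traps, 37.8 ± 2.68 TPM in fly-closed traps and 37.8 ± 1.32 TPM in fly mock traps (SD, n = 3 each), with an SD of y of 0.050. TRINITY_DN255_c0_g1 averaged 24.7 ± 1.53, 29.9 ± 3.16, 27.4 ± 1.60 and 28.2 ± 0.28 TPM in the same groups (SD, n = 3 each), with an SD of y of 0.055. When the 200 were divided into 4 equal parts by their mean in the mock libraries, the steadiest of the most abundant part was TRINITY_DN2067_c0_g1, seventh in order. It was at 66.2, 67.6 and 63.7 TPM in GSH-closed traps, against 84.4, 76.6 and 89.3 TPM in GSH mock traps, and fly-closed traps had 66.7, 77.8 and 77.8 TPM, against 71.6, 68.9 and 74.2 TPM in fly mock traps. Its GSH groups did not overlap in TPM, while its fly groups did.

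**Figure D1:**
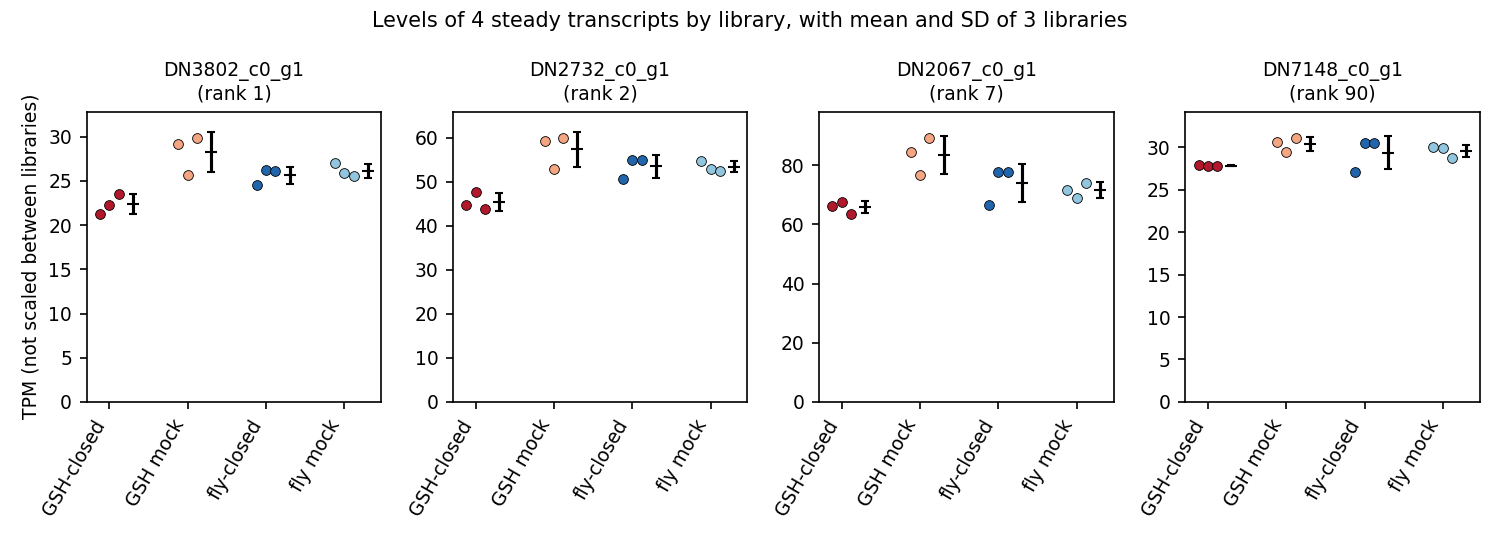
TPM per library (points) with the mean and SD of 3 libraries (bars) for 4 of the 200 transcripts, titled by assembly ID and rank in steadiness; TPM is not scaled between libraries. In all 4, all GSH-closed libraries lie below all GSH mock libraries, and the transcript of rank 90 has the narrowest range of the 4, at 27.1 to 31.1 TPM.

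The limit of 200 falls in a continuous distribution. The last transcript inside it, TRINITY_DN5196_c0_g1, had an SD of y of 0.1052, and the first outside it, TRINITY_DN8022_c1_g1, one of 0.1053. The last inside was at 71.7, 72.3 and 75.3 TPM in GSH-closed traps, against 100.9, 87.9 and 99.4 TPM in GSH mock traps, and fly-closed traps had 90.2, 97.9 and 97.2 TPM, against 92.4, 99.4 and 100.4 TPM in fly mock traps. The first outside was at 24.0, 24.6 and 24.8 TPM in GSH-closed traps, against 34.7, 31.9 and 34.8 TPM in GSH mock traps, and fly-closed traps had 24.4, 25.8 and 28.8 TPM, against 25.9, 26.9 and 27.2 TPM in fly mock traps. Both had their lowest group mean of TPM in GSH-closed traps, and they differ from each other in level more than in steadiness.

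Over the 200 transcripts the SD of y ran from 0.033 to 0.105 with a median of 0.089, and the median over the remaining candidates was 0.256. The highest library of a transcript lay 1.07-fold to 1.35-fold above its lowest, with a median of 1.22-fold, where the remaining candidates had a median of 1.71-fold and reached 69.8-fold. The spread of log2 ratios between pairs of transcripts does not depend on how libraries are scaled. Its median SD over the 12 libraries was 0.11 for the 19900 pairs among the 200 and 0.39 for the 8571870 pairs among the remaining candidates, and the widest pair among the 200 had an SD of 0.20. Both transcripts of a pair among the 200 were chosen for a small SD of y, which bounds the SD of their ratio. The narrow ratios therefore follow from the choice, which itself depends on the scaling, and are no separate support.

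The steady transcripts were of moderate abundance, a property the rule bounded but did not rank. Their mean in the 6 mock libraries ranged from 24.1 to 254.2 TPM with a median of 42.0 TPM, and that of the remaining candidates had a median of 55.4 TPM. Of 1172 candidates from 20 to 40 TPM, 92 (7.85%) were among the 200. From 40 to 80 TPM it was 62 of 1895 (3.27%), from 80 to 160 TPM 39 of 895 (4.36%), and from 160 to 300 TPM 7 of 379 (1.85%). The median SD of y over all candidates of a band grew with level, at 0.20, 0.25, 0.29 and 0.32 from the lowest band to the highest. The limit of 20 TPM in every library bears on these shares and SDs. A transcript near 20 TPM drops out of the candidates after a small fall, and an abundant one does not. The trend with level is thus partly set by the rule, and nothing is read from it. Without the upper limit, 8 transcripts of 300 TPM or more would have entered the 200.

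**Figure D2:**
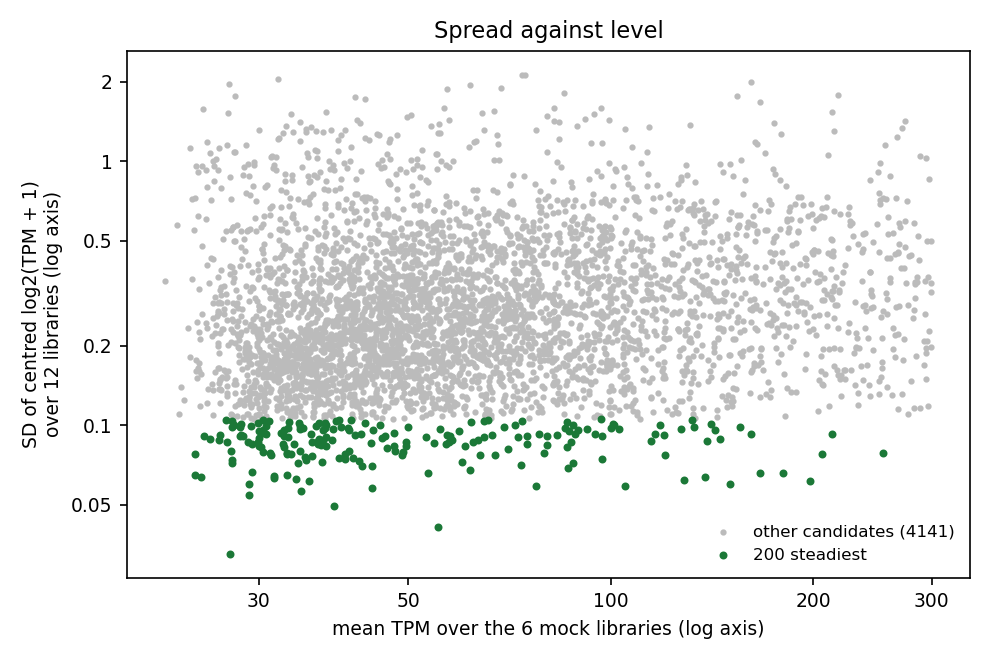
SD of centred log2(TPM + 1) over 12 libraries against the mean TPM of the 6 mock libraries (both axes log) for the 200 transcripts (green) and the remaining 4141 candidates (grey). The 200 lie below an SD of 0.106 by choice, and 92 of them sit between 20 and 40 TPM.

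The spread of the 200 transcripts was divided nearly evenly within and between groups. The pooled SD within groups had a median of 0.068 and the SD of the 4 group means one of 0.067, so that a median of 50.3% of a transcript's sum of squares lay between groups. For the remaining candidates the SD within groups had a median of 0.106, the SD of the group means one of 0.247, and 86.4% of the sum of squares lay between groups. Both measures come from the values that chose the 200, so nothing is read from the gap to the remaining candidates. Without GSH mock replicate 2 the within-group median was 0.061 for the 200 and 0.088 for the remaining candidates. Within the GSH experiment alone the median SD of y was 0.086 for the 200 and 0.224 for the remaining candidates, and within the fly experiment alone it was 0.071 and 0.118.

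The small differences that remained among the 200 are given as a description on y, which is centred by the library medians. GSH-closed traps had the highest group mean of y for 41 of them and the GSH mock for 96, and fly-closed traps had it for 9 and the fly mock for 54. GSH-closed traps were lowest for 59 and the GSH mock for 23, and fly-closed traps were lowest for 97 and the fly mock for 21. In shares, fly-closed traps were highest for 4.5% of the 200, against 4.56% of the remaining candidates, and lowest for 48.5%, against 35.3%. The choice by small spread bears on these shares, and nothing is read from them. For 63 of the 200 all fly-closed libraries lay below all fly mock libraries in y, and for 3 all lay above. Over all 45503 tested features 12.8% were lower and 10.2% higher without overlap, and over the remaining candidates 32.9% and 10.1%, so the 31.5% that were lower among the 200 is near the share of the other candidates. For GSH, 48 of the 200 were lower and 9 higher without overlap, where 18.4% and 25.0% of all tested features were, and 37.7% and 25.5% of the remaining candidates. The 24% of the 200 that were lower thus lies between the share of all tested features and that of the remaining candidates. The differences are small: on y, the change of a transcript among the 200 ran from -0.25 to 0.20 after GSH with a median of -0.05, and from -0.21 to 0.18 after flies with a median of -0.06. With the trimmed mean of log ratios, the scaling of the limma fit, the median change of the 200 was 0.05 after GSH and -0.01 after flies, so the GSH median has the other sign.

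**Figure D3:**
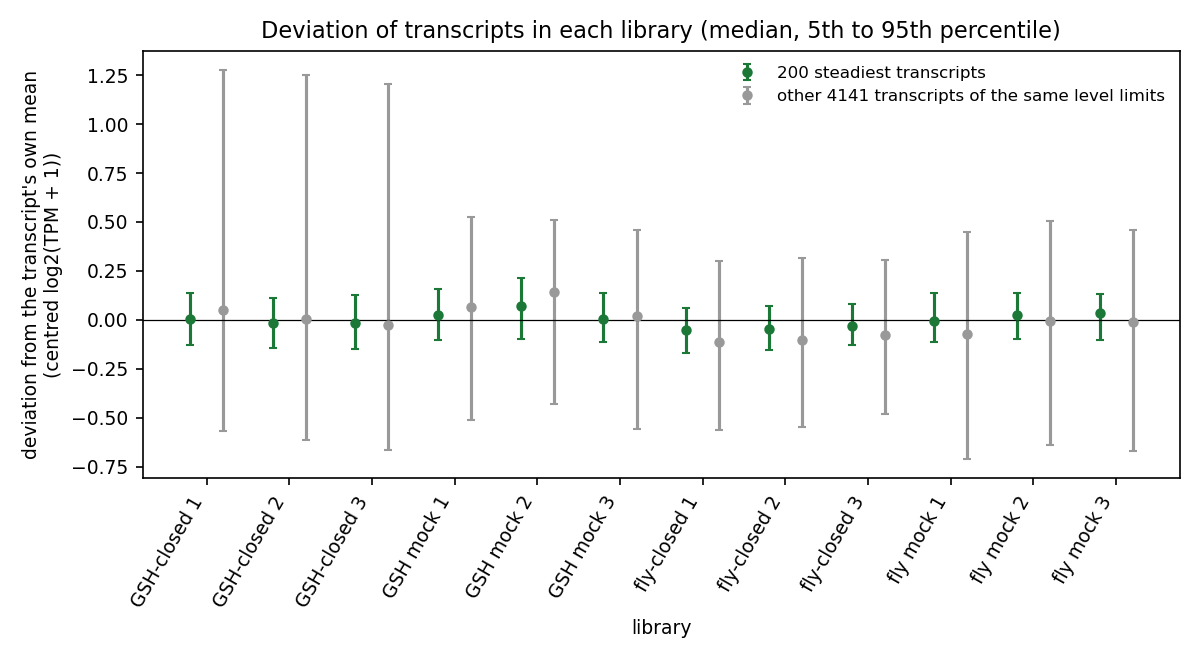
Deviation of a transcript's centred log2(TPM + 1) from its own mean over 12 libraries, by library, as the median (point) and the 5th to 95th percentile (bar) over the 200 transcripts (green) and the remaining 4141 candidates (grey). The medians of the 200 lie between -0.05 and 0.07, and GSH mock replicate 2 has the highest.

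Steadiness here is relative to the typical transcript and not to the library total. The 200 together held 0.987% ± 0.010 of TPM in GSH-closed traps and 1.27% ± 0.074 in GSH mock traps (SD, n = 3 each), so their summed TPM was 0.775 times as high in GSH-closed traps. They held 1.12% ± 0.061 in fly-closed traps and 1.13% ± 0.015 in fly mock traps. With TPM taken only over the 30755 features above 0 in every library, the shares were 1.09% ± 0.015 in GSH-closed and 1.37% ± 0.063 in GSH mock traps, and 1.34% ± 0.004 in fly-closed and 1.33% ± 0.021 in fly mock traps. The lower share in GSH-closed traps moved with the library median given above, which was lower there too. TPM is a share of a library's total. From such shares in bulk tissue, fewer cells of a type, less RNA per cell and a rise of other transcripts cannot be told apart. None of these was tested.

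The first comparison asked how the transcriptome changes when GSH closes the trap. In limma fitted on all 45503 tested features, on log2(TPM + 1) after scaling by a trimmed mean of log ratios, 26 of the 200 (13.0%) had a Benjamini-Hochberg adjusted p below 0.05, all 26 higher in GSH-closed traps. Over all tested features the test called 25.8%, of which 14.7% were higher and 11.1% lower; the rule used this contrast, so nothing is read from the difference. The changes of the 26 ran from 0.16 to 0.30, which is at most 1.23-fold. Over all 200 the change ran from -0.15 to 0.30 with a median of 0.05 and a median standard error (SE) of 0.062. The 95% intervals of all 200 lay within 1.5-fold in both directions, and the bound farthest from 0 was 0.44, or 1.35-fold. With no scaling between libraries 133 of the 200 lay within 1.5-fold and the farthest bound was 0.75 in size. Because low spread chose the transcripts, these SEs and intervals tend to be too narrow.

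The sign of these small changes depended on the scaling. With the library median, the centring of the rule, 20 of the 200 were called, 3 higher and 17 lower. Scaled to the mean of the 200 themselves, an alternative added after seeing the data, 15 were called, 8 higher and 7 lower. That scaling takes out the mean change of the 200, so a near balance of higher and lower is built in. With no scaling, 179 were called and all were lower, with a median change of -0.37, where the median of all tested features moved to -0.27. The shares called of all tested features under these 3 scalings were 28.2%, 27.7% and 36.2%. With no scaling 76.2% of the remaining candidates were called, 604 of them higher and 2550 lower. The 2 transcripts with the largest rise show the dependence on scaling. TRINITY_DN7148_c0_g1, of rank 90, was at 27.9, 27.8 and 27.8 TPM in GSH-closed traps, against 30.6, 29.5 and 31.1 TPM in GSH mock traps, so that its TPM was lower in all 3 GSH-closed libraries. Its limma change was 0.30 ± 0.05 (SE, adjusted p = 0.00144) with the trimmed mean, 0.19 with the library median, 0.24 with the mean of the 200 and -0.12 with no scaling (adjusted p = 0.139).

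TRINITY_DN3837_c0_g1, of rank 172, was at 39.2, 43.4 and 40.6 TPM in GSH-closed traps, against 49.3, 38.2 and 48.0 TPM in GSH mock traps. These groups overlap in TPM, with GSH mock replicate 2 the lowest of the 6. Its limma change was 0.30 ± 0.06 (SE, adjusted p = 0.00499) with the trimmed mean, 0.19 with the library median, 0.23 with the mean of the 200 and -0.13 with no scaling. In the fit on all 12 libraries no transcript among the 200 was called lower with the trimmed mean. With 1 library left out some were. Without fly-closed replicate 1, 11 were called higher and 5 lower. It was 27 and 2 without GSH mock replicate 2, and 18 and 2 without fly mock replicate 1. Without GSH-closed replicate 1 it was 11 and 1, and without GSH-closed replicate 2 it was 14 and 1. The count of 26 fell to 12 without GSH-closed replicate 1 or 3, and to 15 without GSH-closed replicate 2. It fell to 13 without GSH mock replicate 1, to 16 without GSH mock replicate 3 and to 16 without fly-closed replicate 1. Without GSH mock replicate 2 it was 29. In these fits 22.6% to 27.0% of all tested features were called. The count was 0 with no filter on low values, where 3.38% of all tested features were called.

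For closure on flies the same question was put to the fly-closed and fly mock traps. By limma, 2 of the 200 (1.00%) were called at an adjusted p below 0.05, both higher in fly-closed traps, where 5.56% of all tested features were called, 4.77% higher and 0.796% lower. The rule used this contrast as well, so nothing is read from the gap. The 2 called transcripts hold ranks 66 and 132 and were looked up after their values were seen. Rank 66 was at 84.0, 91.8 and 89.5 TPM in fly-closed traps, against 79.7, 77.5 and 76.6 TPM in fly mock traps. Rank 132 was at 90.4, 97.7 and 105.2 TPM in fly-closed traps, against 84.9, 84.0 and 82.4 TPM in fly mock traps. In both the fly groups did not overlap. The change of rank 66 was 0.19 (adjusted p = 0.0429) and that of rank 132 was 0.23 (adjusted p = 0.0284), and both were also called higher after GSH. Rank 66 shares its assembly component with rank 50, and reads may be divided between them. Over all 200 the change ran from -0.16 to 0.23 with a median of -0.01, and the bound of a 95% interval farthest from 0 was 0.34, or 1.27-fold. The count was 0 when any of the fly-closed or fly mock libraries or GSH-closed replicate 3 was left out, and 1 without GSH-closed replicate 1 or 2 or GSH mock replicate 1. Of all tested features 3.16% to 5.86% were called in these fits. With the library median as scaling 1 of the 200 was called, lower in fly-closed traps, against 5.88% of all tested features.

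**Figure D4:**
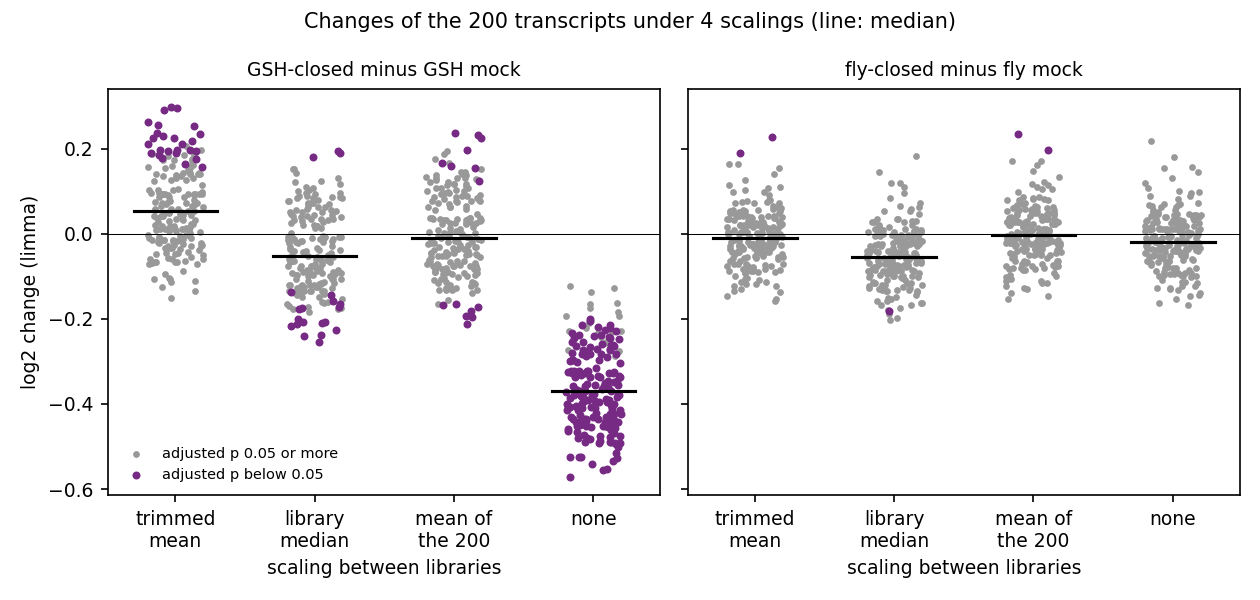
Limma log2 change of each of the 200 transcripts in GSH-closed against GSH mock traps (left) and fly-closed against fly mock traps (right) under 4 scalings between libraries; lines are medians and purple points have an adjusted p below 0.05. After GSH the called transcripts are 26 higher with the trimmed mean and 179 lower with no scaling. After flies at most 2 are called under any of the 4 scalings.

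Between the responses, the limma test of the difference called 8 of the 200, all with the GSH change above the fly change, where 15.1% of all tested features were called, 9.22% higher and 5.89% lower. Their differences ran from 0.21 to 0.39, and all 8 were also called higher after GSH. Without fly-closed replicate 1 the count was 1, and without GSH-closed replicate 1, fly-closed replicate 2 or 3, or fly mock replicate 1 or 2 it was 4 or 5. In these fits 11.8% to 13.7% of all tested features were called. Between the GSH mock and the fly mock, 0 of the 200 were called by limma, where 9.44% of all tested features were called, 5.65% higher and 3.78% lower in the GSH mock. An unadjusted p below 0.05 was reached by 33 of the 200. It was reached by 9233 of the 45503 tested features and by 2398 of the 4141 remaining candidates. The rule used all of these libraries, so nothing is read from the gaps in the difference or between the mocks. The change of the 200 between the mocks ran from -0.19 to 0.22, with the farthest interval bound at 0.35 in size, and at 0.55 with no scaling. The count called was 3 without GSH-closed replicate 3 or GSH mock replicate 2, and 1 without GSH mock replicate 1 or 3, fly-closed replicate 1, or fly mock replicate 1 or 2. Of all tested features 6.97% to 9.60% were called in these fits. In all, 174 of the 200 were called in none of these 4 comparisons, which does not show that their levels were equal.

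To measure steadiness in a library that did not choose the transcripts, the rule was repeated 12 times on 11 libraries, and the library left out was then compared with the mean of the 11. The 11 still held 2 libraries of the same group, so the level of that group took part in the choice and the measure is only partly independent of it. The 200 chosen each time had a median distance of 0.060 to 0.088 on the log2 scale in 11 of the left-out libraries and of 0.170 in GSH mock replicate 2. The remaining candidates of the same choice had median distances of 0.164 to 0.286, above those of the 200 in 12 of 12 libraries and 1.28 to 4.21 times as large. None of the 200 was more than 1.5-fold off in any left-out library, where 5.06% to 23.4% of the remaining candidates were. GSH mock replicate 2 was the exception in size: the 200 chosen without it lay 0.16 above their mean in it, and the ratio there was 1.28. Of the 200 transcripts described here, 141 were chosen again without GSH mock replicate 2, and 170 to 189 without any other library.

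In a further measure transcripts were chosen in one experiment and tested in the other, since the experiments share no library. Transcripts steady in the fly experiment were called after GSH about as often as the other candidates. Of the 200 chosen on the 6 libraries of the fly experiment, 25 are among the 200 described here. In the GSH experiment their median SD of y was 0.18, where it had been 0.041 in the fly experiment, and the remaining 5415 candidates had 0.25. By limma fitted on the 6 libraries of the GSH experiment, 87 of the 200 (43.5%) were called after GSH at an adjusted p below 0.05, 63 higher and 24 lower. Of the remaining candidates 42.1% were called, and of all 34799 features tested there 28.6%, 17.0% higher and 11.6% lower. By y, 13 of the 200 changed by more than 2-fold (6.5%), against 11.99% of the remaining candidates, and the largest rise was 3.58 on the log2 scale.

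Transcripts steady in the GSH experiment were called after flies in a smaller share than the other candidates, a difference with no test of its own. Of the 200 chosen on the 6 libraries of the GSH experiment, 66 are among the 200 described here. Their median SD of y was 0.093 in the fly experiment, where it had been 0.061 in the GSH experiment, and the remaining candidates had 0.126. By limma fitted on the fly experiment alone, 7 of them (3.50%) were called after flies, 5 higher and 2 lower. Of the remaining candidates 10.4% were called, and of all 37310 features tested 6.33%, 5.23% higher and 1.1% lower. None of the 200 changed by more than 2-fold, against 2.49% of the remaining candidates. The 7 fell to 1 when any 1 fly-closed library was left out. It fell to 3 without fly mock replicate 1 and to 2 without fly mock replicate 2 or 3. Calls fell elsewhere as well. Without a fly-closed library 2.10% to 2.19% of all tested features and 4.75% to 4.94% of the remaining candidates were called. Without a fly mock library the shares were 3.98% to 4.42% and 6.03% to 7.28%. The choices share only 9 transcripts, of which 6 are among the 200 described here. A further 115 of the 200 described here were chosen by neither experiment alone. Whether the experiments differ in this was not tested.

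**Figure D5:**
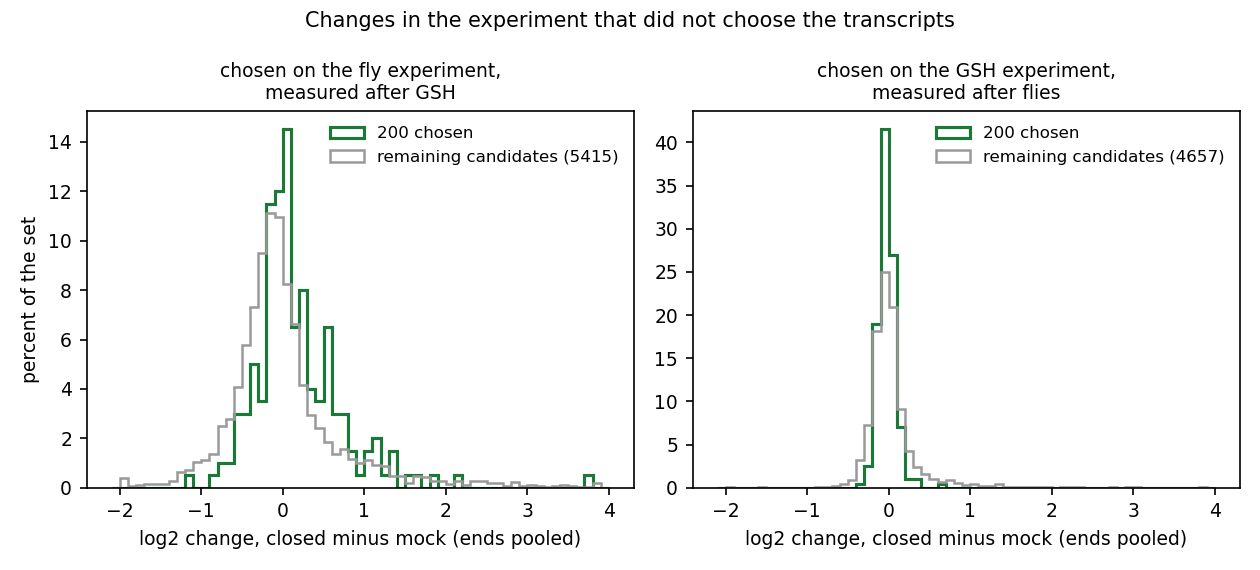
Limma log2 change of closed against mock traps, as percent of a set, for the 200 transcripts chosen in the other experiment (green) and that choice's remaining candidates (grey); values beyond -2 and 3.9 are pooled at the ends. Of the 200 chosen on flies 87 are called after GSH, and of the 200 chosen on GSH 7 are called after flies.

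Which transcripts count as the steadiest also depended on the rule. With the trimmed mean in place of the library median, 128 of the 200 were chosen again, and with no scaling 49. With the coefficient of variation of scaled TPM in place of the SD of y, 190 were chosen again, and with a pseudocount of 0.1, 176. A lower limit of 10 TPM kept 137 and a lower limit of 50 TPM kept 64, since 50 TPM leaves most of the 200 out.

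The IDs give a further property that the rule did not use, the place of a feature in the assembly. Features with the same DN number in their IDs are counted here as the same component, whatever their c number. The g number names a gene-level feature. The 200 transcripts came from 197 components, and 3 components held 2 of them each. A component of its own was held by 63 of the 200 (31.5%), against 29.4% of the remaining candidates. The IDs of 176 of the 200 (88.0%) carried c0, against 78.2% of the remaining candidates, and 185 of the 200 (92.5%) carried g1, against 87.8%. The 197 components held 313 other features, of which 47 were at 0 in every library and whose mean TPM had a median of 1.36.

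Sister features of the steady transcripts were spread over a wide range of SD. Of the 200, 34 had another candidate in their component, and these 39 sisters had a median SD of y of 0.21, against 0.26 for the sisters of the remaining candidates. They ranged from 0.060 to 1.11, and 6 of the 39 are themselves among the 200. Reads shared between sisters may be divided between them, and this was not tested.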

How the data were processed

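The deposited table names 12 libraries and de novo assembly features. Per the submitters' processing notes the tools were RSEM, DESeq2 (version 1.16.1), Trimmomatic and cutadapt, with no role or order given. The authors' deposited values are a rescaled signal and not counts: among values over 0 but under 60, 100% in every library were, within 0.0051, multiples of that library's sum divided by 1e+08, and at most 2.25% were whole within 0.005. Each value was divided by its library sum and multiplied by 1e+06; the result is taken as TPM, and read depth is unknown.

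Features at 0.526 TPM or more in at least 3 libraries, 45503 in all, were tested with limma (version 3.58.1, R version 4.3.3; trend and robust, 1 model of 4 groups, 8 residual degrees of freedom), with a pseudocount of 1 and an unweighted trimmed mean of log ratios (30% and 5% trimmed) as scaling. A fold change on this scale understates the change of low features. A single-experiment fit used its 6 libraries and the same filter. The calculations were tested on simulated data. The members, comparisons and alternatives were chosen with earlier results of these data known. IDs were printed for the 4 steadiest, the steadiest of each of 4 equal parts by level, those beside the limit of 200 and the largest changes called after GSH.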

Additional observations from a re-analysis of the deposited data

Results flagged for a closer look

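The limma test of the difference between the responses passed for 8 of the 200 transcripts, all with the GSH change above the fly change on the log2 scale. The difference was 0.21 for rank 8, 0.22 for rank 14, 0.24 for rank 31, 0.26 for rank 72, 0.30 for rank 90, 0.32 for rank 161, 0.37 for rank 172 and 0.39 for rank 174, with adjusted p from 0.00317 to 0.0499. The spread of these libraries chose the transcripts, so the test is a description here. With the library median as scaling 3 of the 200 passed, and with no scaling 111, all with the GSH change below the fly change. Of all tested features 15.2% and 23.5% passed under these scalings.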

How the results depend on the processing

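Counts of the 200 transcripts called by limma depended on scaling and filter. With no scaling, 179 were called after GSH (higher minus lower, -179), 0 after flies, 111 in the difference (-111) and 35 between mocks. The shares called of all tested features were then 36.2%, 5.31%, 23.5% and 11.6%. Those of the remaining candidates were 76.2%, 7.25%, 55.4% and 47.4%. With the library median, higher minus lower was -14 after GSH, 1 was called after flies and 3 in the difference (net 1). The shares of all tested features were then 28.2%, 5.88% and 15.2%. Scaled to the mean of the 200, which takes out their mean change and so favours a small net, 15 were called after GSH (net 1), 5 in the difference (net 3) and 3 between mocks. Here 27.7%, 15.5% and 10.1% of all tested features were called. With no filter on low values the counts were 0 after GSH, 0 after flies and 1 in the difference, where 3.38%, 0.59% and 1.52% of all tested features were called. A pseudocount of 0.1 gave 1 between mocks, where 9.7% of all tested features were called. The cause was not tested. Leaving out 1 library at a time gave 12 to 29 after GSH (net 6 to 25), 0 to 2 after flies, 1 to 8 in the difference (net 1 to 8) and 0 to 3 between mocks. The shares of all tested features were then 22.6% to 27.0%, 3.16% to 6.22%, 11.8% to 15.2% and 6.97% to 9.60%. The replicate block gave 20 after GSH, 1 after flies, 4 in the difference (net 4) and 0 between mocks. It called 24.2%, 5.05%, 13.6% and 8.19% of all tested features. Deviations of libraries with the same replicate number in their titles correlated from -0.026 to 0.015, against -0.027 to 0.023 for other numbers. With 3 libraries per group this cannot exclude pairing. The numbers in the deposited library names differ from these for some libraries and were not matched.

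Of the 200 chosen on flies, 146 were called after GSH with no scaling, 66 with the replicate block and 66 to 97 with 1 library left out. With no scaling 75.7% of that choice's remaining candidates and 43.2% of all tested features were called, and with the block 33.2% and 20.8%. With 1 library left out the shares were 30.97% to 43.95% and 20.63% to 26.75%. Of the 200 chosen on GSH, the counts after flies were 2 with no scaling, 1 with no filter, 0 with the replicate block and 1 to 3 with 1 library left out. Of all tested features 5.37%, 0.526% and 2.78% were called with no scaling, no filter and the block. With 1 library left out 2.10% to 4.42% were called. Other choice rules shared 128 (trimmed mean), 49 (no scaling), 64 (50 TPM) and 141 to 189 (1 library left out) of the 200. With no scaling the median SD was 0.164 and that of group means 0.159; without 1 library they were 0.081 to 0.090 and 0.066 to 0.072, and the SD within groups 0.061 to 0.071. The share of TPM in fly-closed traps was 1.28% without features seen with flies alone, and over features above 0 in every library it was 1.09%, 1.37%, 1.34% and 1.33% in GSH-closed, GSH mock, fly-closed and fly mock traps. Precision is limited by 3 libraries per group and unknown read depth.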
